A study of Mus musculus with 4 samples.

Results

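The miR-15, miR-16 and miR-195 seed family was followed through the miRNA profiles of the medial prefrontal cortex (mPFC) of mice under chronic unpredictable mild stress (CUMS) and of control mice. Its members were taken by name, as 10 mature arms of the miR-15a, miR-15b, miR-16, miR-195a, miR-322 and miR-497a hairpins among the 1038 known miRNAs of the authors' table. All 4 small RNA libraries came from C57BL/6 mice, described as juvenile males that entered the study at postnatal day 21. The 2 control libraries came from mice kept without the stressors, and the 2 CUMS libraries from mice that had been stressed for 3 weeks. The CUMS mice are a selected group, since only animals that changed in the sucrose preference, Y-maze and forced swimming tests were used. Both hemispheres' mPFC was taken and RNA was isolated from each mouse, so the tissue is a mixture of cell types.

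A miRNA hairpin gives a 5p and a 3p arm, and the arm that is kept as the guide finds its mRNA targets mainly through the seed, bases 2 to 8 from its 5′ end. Guides that share a seed can act on the same sites. The miR-15 and miR-16 family is best known as a brake on the cell cycle and on Bcl2, an inhibitor of apoptosis, and miR-16 is also known as a repressor of the serotonin transporter.

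The 6 guides are shown because they carry 1 seed and differ only outside it. The sequences are from RefSeq on GRCm38.p6, where all 10 members were matched, and capitals mark the seed.
mmu-miR-15b-5p: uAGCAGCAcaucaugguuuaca
mmu-miR-15a-5p: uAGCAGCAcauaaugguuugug
mmu-miR-16-5p: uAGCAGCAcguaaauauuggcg
mmu-miR-195a-5p: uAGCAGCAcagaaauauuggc
mmu-miR-497a-5p: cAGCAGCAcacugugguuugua
mmu-miR-322-5p: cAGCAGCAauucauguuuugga

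miR-15b-5p and miR-15a-5p had the same base at 18 of 22 positions, and miR-16-5p and miR-195a-5p at 19 of 21. The least alike pairs, such as miR-16-5p with miR-497a-5p, had 11 positions in common. RefSeq lists 10 mature mouse miRNAs with this seed. The 6 guides above were the ones found in the authors' table. The other 4 members are 3p arms with 4 different seeds. The one with a mean of at least 5 and a group ratio past 1.5 is shown for contrast.
mmu-miR-16-1-3p: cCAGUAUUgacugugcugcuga

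The hairpins lie at 4 loci (coordinates on GRCm38, GENCODE M21). Mir15b (chr3:69009772-69009835) and Mir16-2 (chr3:69009902-69009996) are 66 bases apart on the plus strand, in introns of all 5 Smc4 transcripts that span them. Smc4 encodes a condensin subunit. Mir16-1 (chr14:61631880-61631972) and Mir15a (chr14:61632027-61632110) are 54 bases apart on the minus strand in introns of 8 transcripts of the noncoding gene Dleu2, and Mir16-1 also partly overlaps the exon of 1 further Dleu2 transcript. Mir497 (chr11:70234717-70234800) and Mir195a (chr11:70235042-70235135) are 241 bases apart on the plus strand, with no annotated host gene on that strand. Mir322 (chrX:53054255-53054349, minus strand) also has none. miR-16-5p is made by both Mir16-1 and Mir16-2, so its reads cannot be divided between chromosomes 3 and 14, whereas each 3p arm belongs to 1 hairpin.

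The authors' values are group means of normalized reads, that is reads divided by a DESeq size factor. From these means the whole number of reads in each library was solved, and each group's libraries are named a and b here. The known miRNAs gathered 10533646 and 10783592 reads in control, against 10427625 and 9589323 under CUMS. The origin of the libraries from brain was checked with the neuronal miR-124-3p and with miR-9-5p, but the dissected region was not tested. In reads per 1000000 miRNA reads (CPM), miR-124-3p was at 2516 and 2147 in control, against 2994 and 3466 under CUMS, a ratio of 1.32 between the group means of normalized reads (edgeR adjusted p = 0.849), and its groups did not overlap. The range of miR-9-5p was 46545 to 71859 CPM, with overlap. Control library b stood apart, because miRNAs of the miR-183 and miR-200 clusters took 9.32% of its reads and 0.0393% to 0.0722% of the reads of the other libraries. The 10 members took 0.132% to 0.159% of the reads in all 4 libraries. Taking these clusters out of the library totals, with CPM otherwise, left the log2 ratio of miR-15b-5p at 0.65 and the direction of the 6 guides as with the deposited means.

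miR-16-5p made up most of the family. It was read 11896 and 14333 times in control and 12057 and 12941 times under CUMS, and ranked 65 of 1038 by mean level. miR-15a-5p was read 725 and 760 times in control and 722 and 705 times under CUMS. miR-497a-5p followed with 526 and 724 reads in control, against 770 and 651 under CUMS. These 3 guides overlapped between the groups. miR-195a-5p, whose hairpin neighbours that of miR-497a-5p, was read 461 and 601 times in control and 461 and 508 times under CUMS, again with overlap. miR-322-5p, the mouse counterpart of human miR-424-5p, was read 177 and 176 times in control and 125 and 141 times under CUMS. Each CUMS library lay below each control library. miR-15b-5p was read 56 and 73 times in control and 87 and 112 times under CUMS. Each CUMS library lay above each control library.

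The 3p arms were lower than their 5p partners throughout. miR-322-3p was read 75 and 91 times in control and 93 and 84 times under CUMS. miR-16-1-3p was read 20 and 33 times in control and 29 and 53 times under CUMS, with overlap between the groups. The arm miR-16-2-3p was read 3 and 5 times in control and 0 and 4 times under CUMS, and miR-15b-3p was read 2 and 1 times in control and 0 and 2 times under CUMS. The last 2 arms are at or near the floor of 3 reads, about 0.3 CPM in each library, and no fold is given for them. A count of 0 in CUMS library a allows up to 0.288 CPM, for counting error only.

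The order of the levels can be read across genes because all members are 21 or 22 bases long. miR-16-5p was 17.6 times as high as miR-15a-5p by overall mean of normalized reads, and their ranges over the 4 libraries did not touch. miR-15a-5p and miR-497a-5p overlapped in range, as did miR-497a-5p and miR-195a-5p. miR-195a-5p was 3.28 times miR-322-5p, and miR-322-5p 1.81 times miR-322-3p, both with separate ranges. miR-322-3p and miR-15b-5p differed by less than their spread, with miR-322-3p the higher of the pair in 3 of 4 libraries. miR-15b-5p was above miR-16-1-3p within each of the 4 libraries although the ranges met. Capture of small RNAs depends on their end sequences, so these orders are of reads, not of molecules.

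**Figure D1:**
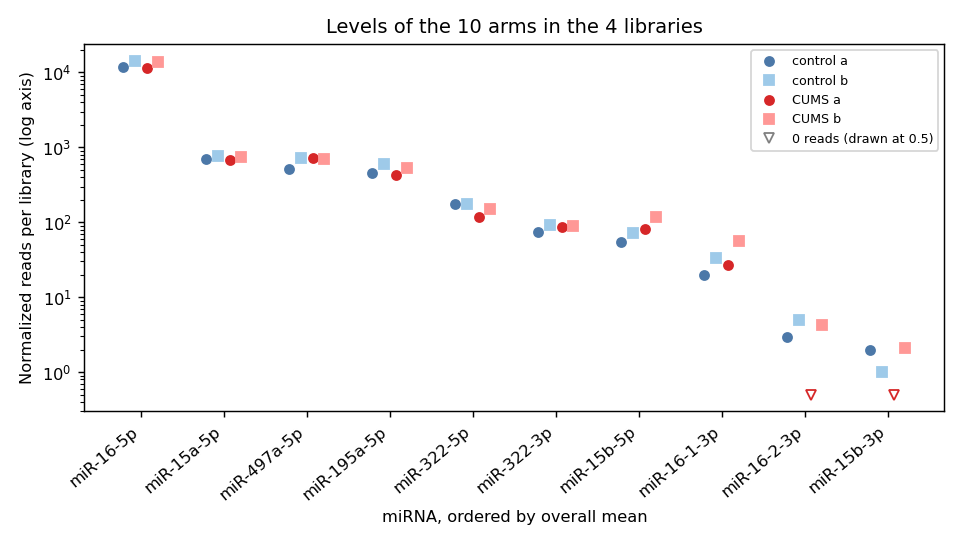
Normalized reads (reads divided by the library's size factor, log axis) of the 10 arms in control libraries a and b and CUMS libraries a and b. Each point is 1 library. miR-16-5p lies near 11352 to 14327 normalized reads and the other arms at least 10 times lower. The CUMS points of miR-15b-5p lie above its control points and those of miR-322-5p below.

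miR-15b-5p was the guide with the largest group ratio. Its level was 54.8 and 73.0 normalized reads in control, against 81.9 and 118.7 under CUMS, with means of 63.9 ± 12.9 (SD, n = 2) and 100.3 ± 26.0 (SD, n = 2), a ratio of 1.57. The gap between groups was small beside the spread within them, since the lowest CUMS library was 1.12 times the highest control library. In CPM, the 95% Wilson interval of control library b was 5.38 to 8.51 and that of CUMS library a was 6.76 to 10.3, so a difference between these libraries was not detectable at this depth. The edgeR quasi-likelihood test on these reads gave a log2 fold change of 0.61 (Benjamini-Hochberg adjusted p = 0.849). DESeq2 gave 0.64 with a standard error of 0.45 (adjusted p = 0.998). By edgeR's p, 54 of 719 miRNAs stood before it. The neuronal miR-124-3p was also higher in each CUMS library than in each control library, and its part in the result was not tested. The ratio of miR-15b-5p was 1.37 without control library a, 1.83 without control library b, 1.86 without CUMS library a and 1.28 without CUMS library b.

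miR-16-1-3p, the passenger arm of the Dleu2 hairpin, had a ratio of 1.59. Its levels were 19.6 and 33.0 normalized reads in control, against 27.3 and 56.2 under CUMS, with means of 26.3 ± 9.49 and 41.7 ± 20.4 (SD, n = 2 each). CUMS library a lay below control library b. The edgeR test gave a log2 fold change of 0.62 (Benjamini-Hochberg adjusted p = 0.865) and DESeq2 gave 0.66 with a standard error of 0.68. The ratio was 1.27 without control library a, 2.13 without control library b, 2.14 without CUMS library a and 1.04 without CUMS library b. miR-15b-5p and miR-16-1-3p are among the miRNAs that the study itself singled out from these libraries, so their ratios are a description and not independent evidence of a change. The study also reports higher miR-15b-5p in CUMS by qRT-PCR, with more mice in each group than there are small RNA libraries. It describes the qRT-PCR samples as coming from the tissues used for sequencing. How far the mice of both methods overlap was not determined here.

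miR-322-5p had the lowest ratio among the guides, 0.765. Its control libraries were nearly equal at 173 and 176 normalized reads, and its CUMS libraries had 118 and 149. The means were 175 ± 1.98 and 134 ± 22.4 (SD, n = 2 each). The edgeR test gave a log2 fold change of -0.42 (Benjamini-Hochberg adjusted p = 0.849) and DESeq2 gave -0.39 with a standard error of 0.34. The ratio stayed between 0.674 and 0.856 whichever library was left out.

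The remaining guides had ratios near 1. miR-16-5p had 11636 and 14327 normalized reads in control, against 11352 and 13711 under CUMS, a ratio of 0.965. miR-15a-5p had a ratio of 0.971, miR-195a-5p of 0.925 and miR-497a-5p of 1.14. DESeq2 standard errors of their log2 fold changes were 0.20 for miR-16-5p, 0.22 for miR-15a-5p, 0.26 for miR-195a-5p and 0.24 for miR-497a-5p. Each of these 4 log2 fold changes was smaller than its standard error. The direction of all 4 turned with the library left out. Without control library a the ratio was 0.875 for miR-16-5p, 0.939 for miR-15a-5p, 0.809 for miR-195a-5p and 0.977 for miR-497a-5p. Without control library b it was 1.08 for miR-16-5p, 1.01 for miR-15a-5p, 1.08 for miR-195a-5p and 1.37 for miR-497a-5p. The passenger arm miR-322-3p had a ratio of 1.07.

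Counted together, 4 of the 6 guides had a lower mean in CUMS and 2 a higher mean, with a median log2 ratio of -0.05, beside 0.02 over the 719 miRNAs that reached 5 reads in any library. This tally was not stable. In CPM 2 guides were lower and 4 higher. Without control library b, and likewise without CUMS library a, miR-322-5p alone was lower and 5 were higher, and without control library a 5 were lower. Of the 8 members that reached a mean of 5 in either group, 2 were past a ratio of 1.5, miR-15b-5p and miR-16-1-3p, both higher in CUMS. Over all listed miRNAs, 25.6% of 628 with such a mean were past it in either direction, 75 higher and 86 lower. Among the 74 miRNAs with an overall mean of 50 to 150, where miR-15b-5p lies, 12.2% were past it, 8 higher and 1 lower, and so was 1 of the 2 members in this band, miR-15b-5p. edgeR fitted 9 of the 10 members, and 0 had an adjusted p under 0.05, as for 0% of all 719 miRNAs. At an unadjusted p under 0.05 it called 0 of the 9 members and 4.17% of all. DESeq2 also called 0 of 719 after adjustment, and 24 at an unadjusted p under 0.05, with 0 members among them. The CUMS libraries were both above both control libraries for 1 of the 9 members, beside 16.7% of all miRNAs, and both below for 1, beside 17.1%. The band count rests on miR-15b-5p itself, at whose level the band lies, so it says nothing about the members as a set. The other shares were taken over members in and out of the band. None of them was higher than that of the whole table.

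**Figure D2:**
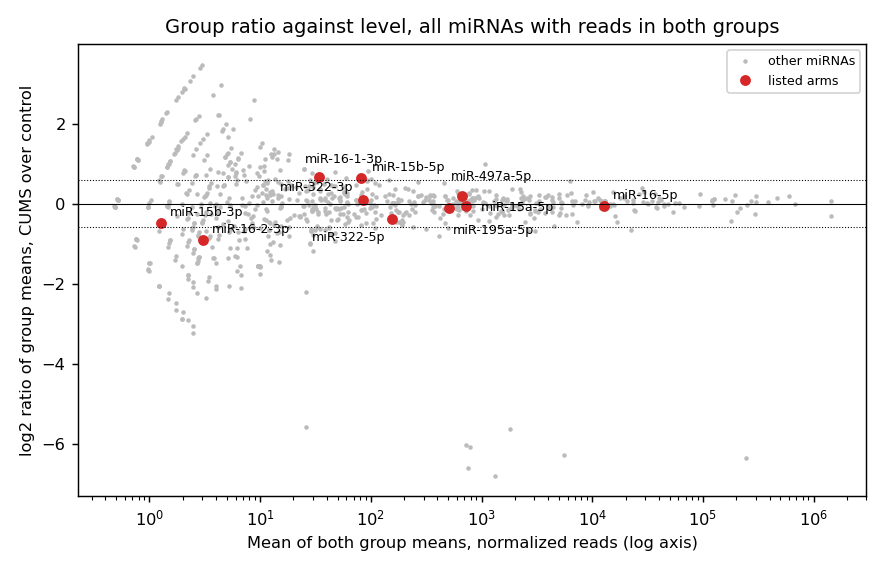
Log2 ratio of the group means (CUMS over control) against the mean level (log axis) of the miRNAs with reads in both groups. Red points are the listed arms, grey points the other miRNAs, and dotted lines a ratio of 1.5 in either direction. miR-15b-5p and miR-16-1-3p lie just outside the upper line, and the scatter of grey points widens toward low levels.

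Because the 6 guides share their seed, their sum is the level of that seed among the miRNAs of the table that were matched to RefSeq. The sum was 13539 and 16660.3 normalized reads in control, against 13391 and 15954 under CUMS. The means were 15099 ± 2207 and 14673 ± 1813 (SD, n = 2 each), and the groups overlapped. On the log2 scale the sum differed by -0.04 between CUMS and control (exact permutation test, two-sided, p = 0.667). The sign of this difference turned to 0.04 in CPM, to 0.11 without control library b and to 0.09 without CUMS library a. With 2 libraries against 2 such a test cannot give less than p = 0.333 by exact enumeration. The guide miR-16-5p supplied 84.8% to 86.0% of the sum in every library.

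miR-15b-5p took 0.405% of the guides' reads in control library a (95% Wilson interval 0.312% to 0.525%) and 0.438% in control library b (0.349% to 0.550%). It took 0.612% in CUMS library a (0.496% to 0.754%) and 0.744% in CUMS library b (0.619% to 0.894%). The CUMS shares were both above the control shares, with intervals that overlapped for CUMS library a and not for CUMS library b. The ratio of miR-15b-5p to its 5 seed partners was on average 1.61 times as high in CUMS, a log2 difference of 0.68 with a spread of 0.15 (pooled SD within groups). The exact permutation test gave p = 0.333, the smallest value it allows. In amount, the means of miR-15b-5p differed by 36.4 normalized reads, 0.241% of the guides' control mean, while the control libraries alone differed by 2691 normalized reads in miR-16-5p. In bulk tissue, a change in the number of cells of a type and a change in a miRNA per cell cannot be told apart.

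**Figure D3:**
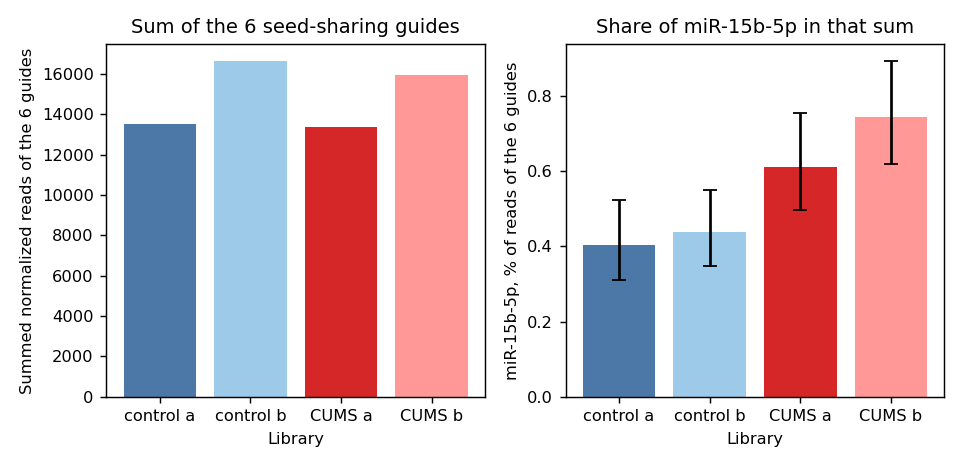
Left, summed normalized reads of the 6 seed-sharing guides in each library. Right, reads of miR-15b-5p as a percentage of the reads of these guides, with 95% Wilson intervals for counting error. Each bar is 1 library. The sum overlaps between groups at 13391 to 16660.3, and the share of miR-15b-5p is 0.405% and 0.438% in control against 0.612% and 0.744% in CUMS.

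Ratios within a library do not depend on the scaling of libraries, and 5 were compared between arms or loci by the exact two-sided permutation test with Benjamini-Hochberg adjustment over the 5. miR-15b-5p over miR-15a-5p, guides alike at 18 of 22 positions but made from Smc4 and Dleu2, was 0.0772 and 0.0961 in control, against 0.120 and 0.159 under CUMS (exact p = 0.333, adjusted p = 0.417). miR-322-5p over miR-322-3p was 2.36 and 1.93 in control, against 1.34 and 1.68 under CUMS, a log2 difference of -0.51 with a pooled SD of 0.22 (exact p = 0.333, adjusted p = 0.417). The group ratio was 0.765 for the 5p arm of this hairpin and 1.07 for the 3p arm, a difference that this design is too small to call. miR-195a-5p over miR-497a-5p, neighbours on chromosome 11, was 0.876 and 0.830 in control, against 0.599 and 0.780 under CUMS (exact p = 0.333, adjusted p = 0.417). For these 3 ratios the groups did not overlap.

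The other pair of ratios rests on few reads, and 0.5 was added to each count. miR-15b-5p over miR-15b-3p was 22.6 and 49.0 in control, against 175 and 45.0 under CUMS, with overlap (exact p = 0.667, adjusted p = 0.667). miR-16-2-3p over miR-16-1-3p, the arms that tell the copies of miR-16 apart, was 0.171 and 0.164 in control, against 0.0169 and 0.0841 under CUMS. The groups did not overlap (exact p = 0.333, adjusted p = 0.417), but miR-16-2-3p had at most 5 reads in any library.

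**Figure D4:**
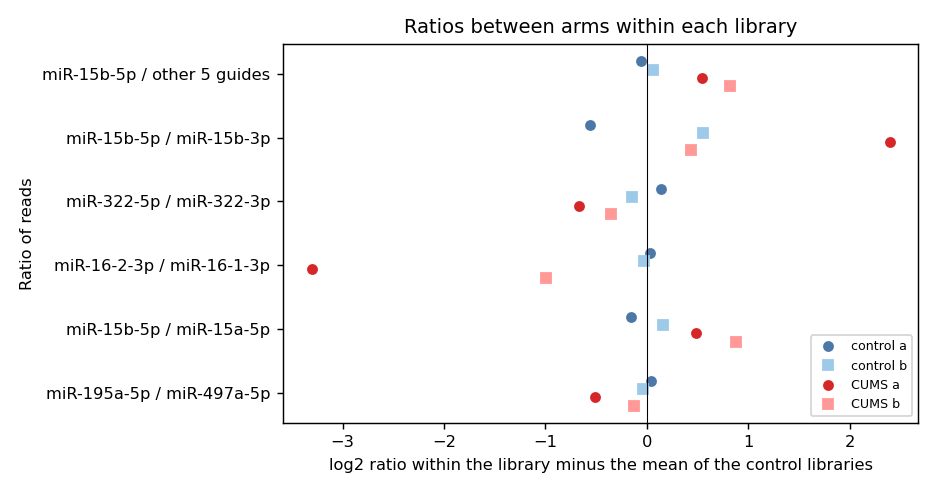
Log2 ratio of reads of one arm to another within each library, minus the mean of the control libraries. Each point is 1 library. The ratios of miR-15b-5p to its seed partners and to miR-15a-5p are higher in both CUMS libraries, that of miR-322-5p to miR-322-3p is lower in both, and the ratios with miR-15b-3p or miR-16-2-3p, which rest on few reads, are spread widely.

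Arms made from the same loci were read beside the members. Of 5 listed partner arms, 2 were in the table. The arm miR-195a-3p was read 137 and 181 times in control and 152 and 167 times under CUMS. The arm miR-15a-3p was read 2 and 1 times in control and 8 and 6 times under CUMS, with an edgeR adjusted p of 0.849. In the X chromosome cluster of miR-322, which holds miR-503, miR-351, miR-542, miR-450a and miR-450b, 9 of 11 listed arms were in the table and 7 were tested. Of the 7, 0 had an adjusted p under 0.05 by edgeR. The median log2 ratio of the 7 was -0.24, beside 0.02 over all 719, and 6 of the 7 means were lower in CUMS. Among these 7, miR-351-3p and miR-542-5p had only 31 and 29 reads over all libraries. The untested miR-503-3p and miR-450b-3p, with under 5 reads in every library, had higher means in CUMS. The single arm with an unadjusted edgeR p under 0.05 was miR-450a-5p. It was read 38 and 39 times in control and 21 and 17 times under CUMS, with an edgeR log2 fold change of -1.04 (Benjamini-Hochberg adjusted p = 0.849). miR-351-5p was read 732 and 707 times in control and 684 and 642 times under CUMS.

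Some miRNAs carry the first 6 bases of the seed, AGCAGC, at base 1 or 2 without the whole seed at bases 2 to 8. All 3 that RefSeq lists were in the table. miR-103-3p was read 24967 and 20596 times in control and 21736 and 26235 times under CUMS, more than miR-16-5p in every library. miR-107-3p was read 11249 and 9647 times in control and 10937 and 10666 times under CUMS. miR-503-5p was read 0 and 0 times in control and 0 and 9 times under CUMS. The edgeR test called 0 of the 3, also at an unadjusted p under 0.05.

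The study lists Slc6a11 (the GABA transporter GAT-3), Gad2 (a GABA-synthesizing enzyme), Ngfr (a neurotrophin receptor), Gng4 (a G protein subunit) and Peg10 as predicted targets of miR-15b-5p. For Slc6a11 it also reports an inverse correlation with miR-15b-5p by qRT-PCR, and a luciferase assay in cultured cells. In that assay a miR-15b-5p mimic lowered reporter activity with the wild-type 3′ UTR, and mutating the predicted site reversed this. The longest annotated 3′ UTR of each listed gene (GENCODE M21) was read for TGCTGCT on the mRNA strand, the complement of the seed. Each held it once. The shorter match to the first 6 bases of the seed, counted with these sites, was found 4 times in Slc6a11, 3 in Gad2 and 2 in Ngfr. In Gng4 and Peg10 it was found 1 time each. Whether the Slc6a11 site shown is the one mutated in the assay was not determined. The sites are shown because the match is open to all 6 guides alike, with capitals for the match.
Slc6a11 (chr6:114249480-114249486, plus strand): agggaagctgcccgtTGCTGCTa
Peg10 (chr6:4758387-4758393, plus strand): gctgagactccatttTGCTGCTa
Gad2 (chr2:22693530-22693536, plus strand): gggtcttggagaaggTGCTGCTc
Ngfr (chr11:95570638-95570644, minus strand): aaaccacagccctgtTGCTGCTc
Gng4 (chr13:13826673-13826679, plus strand): acgaggcttgctgtgTGCTGCTg

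In Slc6a11 and Peg10 the match was followed by an A, the base that extends a seed match to its longest form. Of 21004 longest 3′ UTRs of protein-coding genes, 20.3% held TGCTGCT. Among 3′ UTRs within 20% of the same length the share was 31.5% for Slc6a11, 43.0% for Gad2, 27.9% for Ngfr, 34.6% for Gng4 and 54.4% for Peg10. Target prediction draws largely on seed matches, so the matches in these genes are not independent of how the genes were picked. Past the seed, in an alignment without gaps, the guides paired with 0 to 6 of the bases from base 9 on. miR-15b-5p paired with as many bases as any other guide, or more, at 2 of the 5 sites, with 4 of 14 in Slc6a11, where miR-497a-5p also had 4, and 5 of 14 in Gad2. The complement of the miR-16-1-3p seed, AATACTG, was in 11.3% of all 3′ UTRs and was not found in the longest 3′ UTR of Gad2 or Ngfr, its listed targets. Among 3′ UTRs of like length the share was 26.15% for Gad2 and 15.07% for Ngfr. The shorter match to the first 6 bases of that seed was found 1 time in Gad2 and 0 times in Ngfr. A match is a description of letters, and target mRNA levels were not analysed here.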

How the data were processed

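Small RNA from mPFC was sequenced on an Illumina HiSeq. Per the study's methods, the authors removed adaptor, low-quality and other noncoding RNA reads, and counted reads of 18 to 25 bases that aligned perfectly to miRBase precursors, by mature arm. The submitters' notes name Bowtie, DESeq and mm10, without versions. The signal in the deposited table is each group's mean of reads over DESeq size factors. The columns are unnamed by group, and their values match the study's control and CUMS headings. The deposited fold changes and p-values are the study's own comparison and were not used.

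Each group mean was solved as whole reads of 2 libraries times 2 steps. All 1038 values of each group came out whole (relative tolerance 1e-09), with 2 control miRNAs ambiguous. In 4 simulated columns 100% were recovered. Size factors recomputed from the reads equalled those in the steps. Libraries cannot be tied to replicate numbers.

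The main value is the ratio of the deposited means. As an alternative, edgeR 4.0.16 (quasi-likelihood, TMM, at least 5 reads in a library) and DESeq2 1.42.0 were run on the recovered reads in R 4.3.3, with group as factor and Benjamini-Hochberg adjustment over all miRNAs fitted. The edgeR fit was tested on simulated data. Their p-values set the group difference against the spread between these libraries, estimated with sharing across miRNAs. Ratios, exact tests and Wilson intervals used Python 3.11.15 and scipy 1.17.1. A ratio past 1.5 was counted for miRNAs with a mean of at least 5. Intervals and floors cover counting error only. Members and lists were chosen with earlier results of these data known. All listed members are named, and other miRNAs come from lists of partner arms, cluster neighbours and seed relatives. Alternatives were other scalings, filters, folds, tools and leaving out each library.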

Additional observations from a re-analysis of the deposited data

How the results depend on the processing

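Of 147 alternative values for 19 results, all but 6 moved by less than the spread between replicates, or for counts stayed within 1.5 times. With 2 libraries in a group, leaving 1 out can hardly move a value by more than that spread. For these alternatives the tally is therefore no measure of stability. The log2 ratio of miR-16-1-3p went from 0.67 to 0.06 without CUMS library b and still counted as within the spread. The number of members past a ratio of 1.5 was 2 with the deposited means, and also under CPM, TMM factors and CPM without the miR-183 and miR-200 clusters. It was 3 at a ratio of 1.3, with miR-322-5p added, and 0 at a ratio of 2. When each library was left out it ranged from 0 to 2, with 0 without control library a or without CUMS library b. The log2 ratio of miR-15b-5p kept its sign in 10 of 10 alternatives and ranged from 0.36 to 0.89. Both its CUMS libraries lay above both its control libraries, so leaving out 1 library could not turn that sign. Leaving out a library moved that of miR-322-5p to -0.57 (without CUMS library b), of miR-322-3p to 0.27 and of miR-497a-5p to 0.46 (both without control library b). The count test called 0 members under edgeR without a filter, with at least 5 reads in every library, under DESeq2 and without any one library. Without control library a, edgeR called 12 miRNAs of the table, none of them a member, against 0 with all libraries. There the lone control library is library b, which stood apart by its reads of the miR-183 and miR-200 clusters. It is assumed to vary like the CUMS libraries. Other scalings moved the median log2 ratio of all miRNAs by at most 0.08. Of the 1038 names in the table, 884 were matched to RefSeq, and the seeds of the unmatched names were not read. All matched miRNAs with the seed are members, so that alternative changed no value. No paired analysis was possible because the recovered libraries carry no replicate numbers. At this depth, arms under about 100 reads, among them miR-15b-5p in 3 of 4 libraries, carry a large counting error.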
